A study of Mus musculus with 6 samples.

Results

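The electrical set of the mGLUTag line comprised the subunits of voltage-gated calcium, sodium and potassium channels, the other potassium channels named KCN, and the sulfonylurea receptors of the ATP-sensitive potassium (KATP) channel. Its members were chosen by name alone, as all probes whose symbol begins with CACNA, CACNB, CACNG, SCN followed by a digit, or KCN, or is ABCC8 or ABCC9. This gave 260 of the 45281 probes, for 132 of the 30854 gene symbols measured. mGLUTag is an immortalized murine L-cell line, a model of the enteroendocrine cell that secretes glucagon-like peptide-1. All 6 samples were of this line, starved of serum, given a forskolin pulse to align their clocks and then grown in fresh medium. RNA was taken at 4 h (3 samples) and at 16 h (3 samples). Both groups thus share the forskolin pulse, no unsynchronized sample was compared, and being 1 line they stand for no animal. Each sample was hybridized to 1 array of the mouse Illumina BeadChip type. The question addressed here was which channel subunits the cells transcribe and whether their transcripts differed between the 2 times.

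L-cells are electrically excitable. Closure of KATP channels when glucose is metabolised, or entry of sodium with a transported nutrient, depolarises the membrane, voltage-gated sodium and calcium channels then open, and the calcium that enters triggers release of hormone granules. Voltage-gated and background potassium channels oppose this by repolarising the cell. A high-voltage-activated calcium channel joins a pore subunit (alpha1) with a beta and an alpha2delta subunit. A KATP channel joins an inward rectifier pore (Kcnj11 or Kcnj8) with a sulfonylurea receptor (Abcc8 or Abcc9).

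A pair of potassium channel genes had the smallest p in each direction among the detected subunits, and the 250 bases before their transcription starts are printed for that reason. Kcnc4 encodes a fast voltage-gated potassium channel pore of the Shaw family, and Kcnk2 a background potassium channel of the tandem-pore class. The sequences are those of RefSeq (GRCm38.p6), read 5′ to 3′ on the minus strand, at chr3:107458899-107459148 for Kcnc4 and at chr1:189343708-189343957 for the start of Kcnk2 shown, which is 1 of 4. Capitals mark CpG dinucleotides.
Kcnc4: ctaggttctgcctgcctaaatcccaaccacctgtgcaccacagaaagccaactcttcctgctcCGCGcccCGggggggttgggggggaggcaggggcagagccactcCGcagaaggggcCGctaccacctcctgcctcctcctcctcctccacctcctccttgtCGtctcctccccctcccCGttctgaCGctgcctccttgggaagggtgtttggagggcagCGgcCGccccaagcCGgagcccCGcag
Kcnk2: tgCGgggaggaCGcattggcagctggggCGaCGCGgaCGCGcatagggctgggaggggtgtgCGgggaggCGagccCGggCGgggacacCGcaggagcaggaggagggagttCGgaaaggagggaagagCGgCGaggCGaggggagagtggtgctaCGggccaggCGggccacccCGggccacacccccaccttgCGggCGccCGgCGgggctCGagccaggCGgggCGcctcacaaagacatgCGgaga

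The Kcnc4 window held 12 CpG dinucleotides and 68% GC, and the Kcnk2 window 27 CpG and 74.4% GC. This is the most GC-rich of the Kcnk2 starts, the others having 42.4% (5 CpG), 53.2% (2 CpG) and 70.4% GC (28 CpG). Promoters of this table were matched for 19 of the 27 channel genes detected on every array (32 promoters), and their median GC was 63% with a median of 13 CpG. The 72 promoters of channel genes detected on no array had a median GC of 55.4% and 7 CpG, and all 32851 promoters 52.4% and 6 CpG. Letters of 4 motifs used by clock and cAMP factors were searched on both strands in these windows, of which the first and second differ only in their last base. CACGTG, the E-box core, was in 6.02% of all promoters, in 4.55% of the 132 channel promoters matched and in none of the 32 of detected genes. The variant CACGTT was in 3.85% of all promoters, 3.03% of the channel promoters and none of the 32. TGACGTCA, the full cAMP response element, and TTATGTAA, a D-box, were in 1.55% and 0.819% of all promoters and in no channel promoter. These are matches of letters in a short window and no measure of binding.

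The arrays differed in brightness, with a mean intensity of 353.9, 291.3 and 321.8 on the 4 h arrays against 245.6, 245.2 and 216 on those at 16 h. Values are intensities with background subtracted, and since no detection p-value was given, a probe was called detected on an array when it lay above the noise limit, the 99th percentile of that array's below-zero values with the sign turned (9.2 to 14 intensity units). Changes are log2 values at 4 h minus 16 h after normalization that equalizes the arrays, so each is relative to the other probes. Probes for 18S ribosomal RNA separated the arrays across the times, with mean log2 values of 8.48, 10.55 and 9.22 on 4 h replicates 1 and 3 and 16 h replicate 1, against 6.90, 7.69 and 7.01 on the other 3. Whether samples of a time came from separate cultures is not given, so p-values measure the spread between these samples, which may be technical. Of 18 L-cell markers, 14 were detected on all arrays and Pyy on none, while of 6 beta-cell markers Ins1, Ins2, Iapp and Slc2a2 were on none and Mafa and Pdx1 on all. Of 8 neuronal markers measured, 4 (Map2, Nefm, Slc17a6 and Gad2) were on all arrays and Tubb3 and Nefl on none, and the 5 enterocyte markers measured had none on all arrays. The summed intensity of the neuronal markers ran from 7472 to 9576 at 4 h and from 4656 to 6182 at 16 h, and that of the L-cell markers from 64410 to 76090 and from 48320 to 52910. The part of these cell-type genes in the channel results was not tested, and in a culture fewer cells of a type and less RNA per cell cannot be told apart.

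Most channel transcripts were not detected. Of the 260 channel probes, 39 (15%) passed the noise limit on every one of the 6 arrays, where 33% of all probes did, and 163 (62.7%) on no array, where 53.8% of all probes did. In terms of genes, taking for each gene the probe of highest mean value after normalization, 27 of 132 were detected on all 6 arrays, 32 on 1 to 5 and 73 on none. The count on all arrays was 31 with a noise limit at the 95th percentile and 23 with one at the largest value. A transcript below the limit may be present at a level these probes do not measure.

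**Figure D1:**
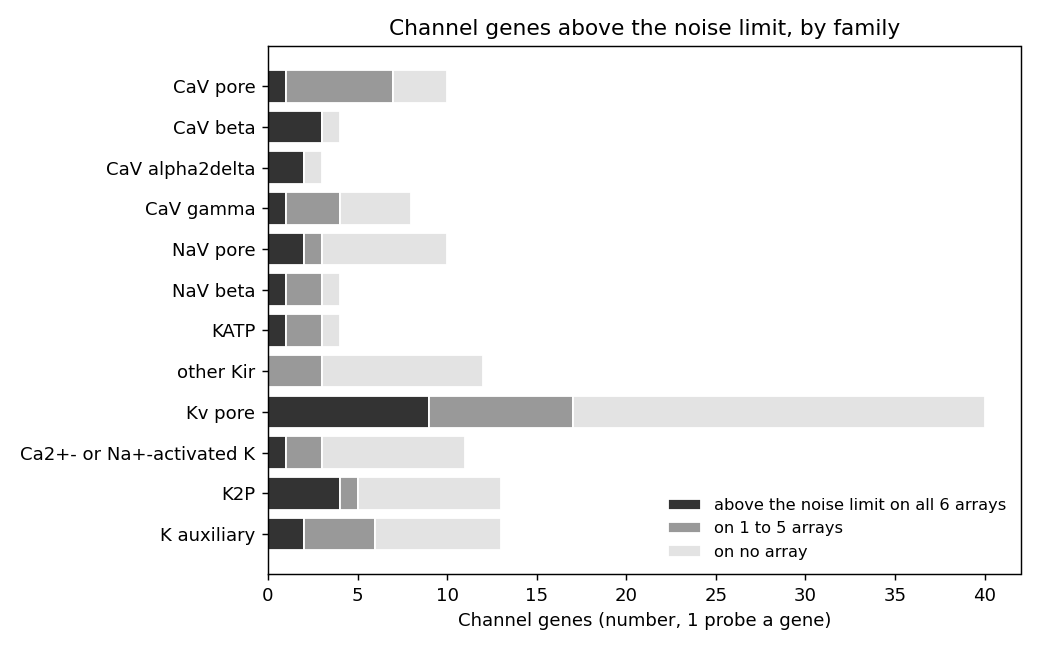
Number of channel genes of each family (horizontal axis, genes) detected above the noise limit on all 6 arrays, on 1 to 5 arrays or on none. The Kv pore family, with 40 genes, had the most on all arrays (9) and the most on none (23), and among the inward rectifiers outside KATP no gene of 12 was on all arrays.

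Of the 10 voltage-gated calcium channel pores, Cacna1g, a low-voltage-activated T-type pore, was the one detected on all arrays. The P/Q-type pore Cacna1a and the L-type pore Cacna1c were detected on 5 arrays each. The N-type Cacna1b, the R-type Cacna1e and the T-type Cacna1h were detected on 2 each, the L-type Cacna1d on 1, and Cacna1f, Cacna1i and Cacna1s on none. Among the auxiliary subunits, 3 of 4 beta subunits were detected on all arrays (Cacnb2, Cacnb3 and Cacnb4, but not Cacnb1) and 2 of 3 alpha2delta subunits (Cacna2d1 and Cacna2d3, but not Cacna2d4). Of the 8 gamma subunits, a family whose members also accompany glutamate receptors, Cacng5 was on all arrays and 4 were on none.

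Among the sodium channel pores, Scn1a and Scn3a were detected on all arrays, Scn10a on 1, and the other 7 on none, Scn2a, Scn4a, Scn7a, Scn8a, Scn9a and Scn11a among them. Of the beta subunits, which tune gating and surface expression of the pores, Scn3b was on all arrays, Scn4b on 5 and Scn2b on none.

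Of the KATP channel, Abcc8, the sulfonylurea receptor of the beta-cell type of channel, was detected on all arrays by one probe and on 1 array by a second. Its usual partner Kcnj11 was detected on 2 arrays, both at 16 h, and probes of different genes cannot be set against each other. The other KATP pore, Kcnj8, was on 3 arrays and the other receptor, Abcc9, on none. Of the 4 genes used to check the label of the set, Abcc8 was thus detected on all arrays, Cacna1a on 5, Kcnj11 on 2 and Cacna1d on 1, and the pore and the receptor of this channel were not both detected on all arrays. The 12 other inward rectifiers had no gene on all arrays, and Kcnj4 was on 4.

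Of the 40 voltage-gated potassium channel pores, 9 were detected on all arrays, among them the Shaker member Kcna6, the Shaw members Kcnc1 and Kcnc4, the A-type Kcnd2, the ether-a-go-go related Kcnh2 and Kcnh6, and Kcnq3, a subunit of M-type channels. A further 8 were on 1 to 4 arrays and 23 on none, Kcnq1 among them. Of 13 background (tandem-pore) channels 4 were on all arrays, Kcnk1, Kcnk2, Kcnk10 and Kcnk12, of which Kcnk2 and Kcnk10 are mechanically gated relatives. Of 11 calcium- or sodium-activated channel genes, the sodium-activated Kcnt1 was on all arrays, Kcnn1 on 3, and the large-conductance pore Kcnma1 and the small-conductance Kcnn2, Kcnn3 and Kcnn4 on none. Of 13 auxiliary subunits 2 were on all arrays, the cytoplasmic beta subunit Kcnab2 and the calcium-binding protein Kcnip3.

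**Figure D2:**
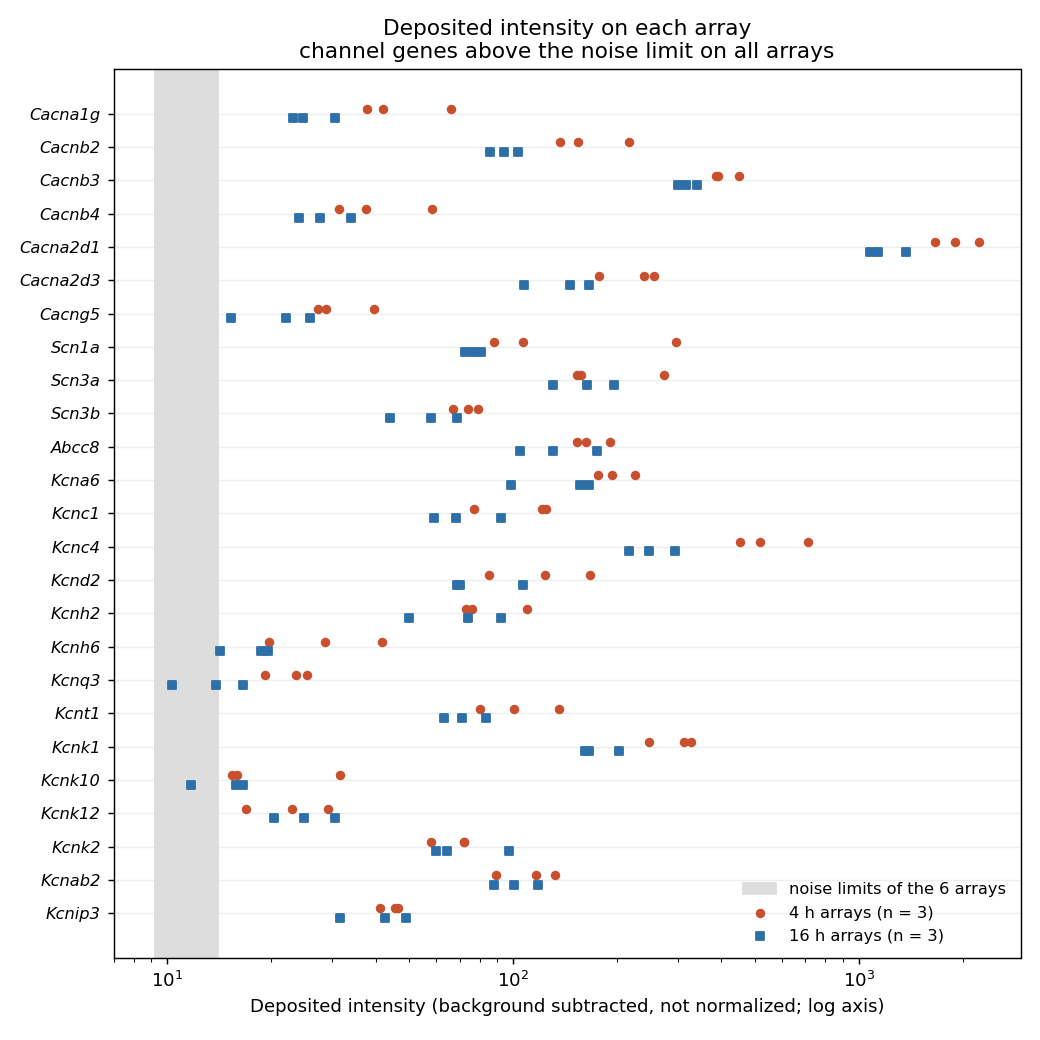
Deposited intensity (background-subtracted, arbitrary units, log axis) of the channel genes detected on all arrays that are reported here, in each of the 3 arrays at 4 h and the 3 at 16 h. For 25 of the 27 genes detected the mean intensity was higher at 4 h, the exceptions being Kcnk2 and Kcnk12. It was also higher for 14670 of the 14941 probes detected on all arrays, as was the array mean itself.

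No channel gene was called different between 4 h and 16 h after adjustment on the quantile normalized values. With median scaling in its place Kcnc4 and Cacna2d1 were called (limma adjusted p = 0.0401 and 0.0494), where 832 of all probes were called higher and 0 lower. With no between-array normalization those and Kcnk1 were called, where 2308 probes were called higher and 0 lower. These 2 settings leave a shared shift of 0.27 and 0.36 log2 units in the median of detected probes. With no background correction Kcne2, detected on no array, was called, where 19 probes were called higher and 10 lower. On the quantile normalized values limma called 2 probes higher and 2 lower at 4 h of all 45281 (0.00442% in each direction, adjusted p under 0.05). None of these was a channel probe. At an unadjusted p under 0.05, 2 channel probes (0.769%) were higher and 10 (3.85%) lower at 4 h, against 2.81% and 2.6% of all probes. In 13 channel probes (5%) every 4 h value lay above every 16 h value and in 21 (8.08%) every one lay below, against 5.54% and 5.38% of all probes. These counts include the 163 probes detected on no array, and among the 27 genes detected on all arrays the times did not overlap in 3 with higher and 3 with lower values at 4 h, beside 914 and 823 of the 14941 probes detected on all arrays. At an unadjusted p under 0.05 were 5 of these 27 genes and 1628 of those 14941 probes. Of the 10 channel genes at an unadjusted p under 0.05, 6 were detected on 3 or more arrays, and the other 4 (Cacna1i, Cacng4, Kcne2 and Kcnk5) are given no change. The smallest two-sided p that an exact permutation of 3 and 3 arrays allows for one gene is 0.1.

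Among the 27 channel genes on all arrays, 12 had a higher and 15 a lower mean at 4 h, with a median log2 change of -0.02 (range -0.36 to 0.50), beside 0.00 for the 14941 probes detected on all arrays. The standard error ran from 0.065 to 0.22, and the 95% interval reached a median of 0.23 to either side of the estimate, so that for a typical member changes of this size or less could not be told from 0. In 3 of the 27 genes the change was beyond 0.25 in size, beside 1448 of the 14941 probes detected on all arrays. The 7 calcium channel subunits on all arrays comprised 5 with a higher and 2 with a lower mean at 4 h (median 0.08), and the 13 voltage-gated and background potassium pores 6 and 7 (median -0.02). Without normalization, the median log2 ratio of 4 h over 16 h mean intensity was 0.54 for the channel genes and 0.55 for all probes detected on all arrays.

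**Figure D3:**
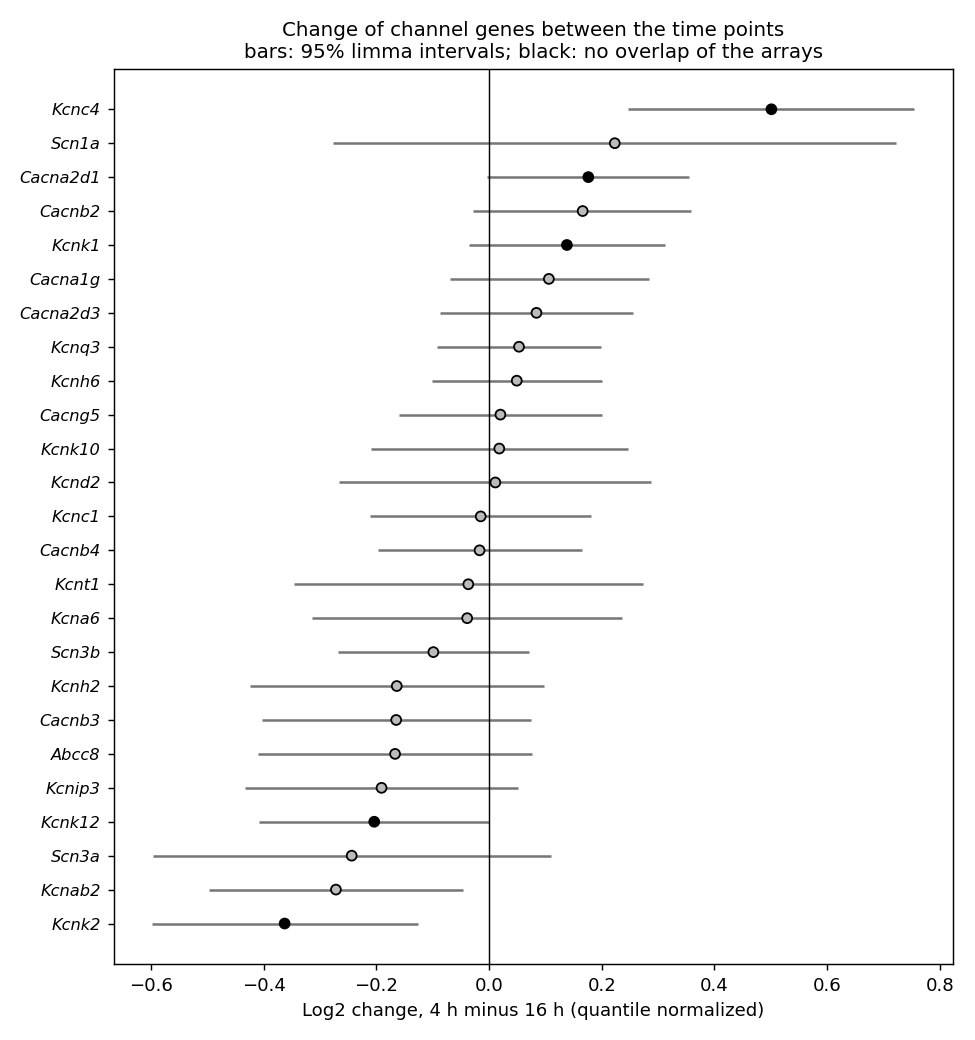
Log2 change (4 h minus 16 h) of the channel genes detected on all 6 arrays that are reported here, with 95% limma intervals as bars and black points where the times do not overlap. The values run from -0.36 (Kcnk2) to 0.50 (Kcnc4), and no gene was called after adjustment over all 45281 probes.

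Kcnc4 had the smallest p among the detected members with a higher mean at 4 h. Its probe read 714.2, 454.0 and 519.1 at 4 h and 293.6, 246.8 and 216.0 at 16 h, so that every 4 h array was above every 16 h array. After normalization the log2 mean was 9.02 ± 0.21 (SD, n = 3) at 4 h and 8.52 ± 0.12 at 16 h, a difference of 0.50 (SE 0.11, 95% interval 0.25 to 0.76; limma adjusted p = 0.405, and 0.0401 with median scaling). A second, dimmer probe, detected on 4 arrays, read 26.7, 18.5 and 26.1 against 7.3, 13.8 and 8.4. The times did not overlap on this probe either, with a log2 difference of 0.15 (SE 0.068). The difference for Kcnc4 was 0.41 among the 3 arrays with high 18S signal and 0.49 among the 3 with low 18S signal, both with a single array on one side. Kcnc1, the other Shaw pore, had a log2 difference of -0.02 (SE 0.087).

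Kcnk2 had the smallest p among the detected members with a lower mean at 4 h. Its intensities were 72.1, 57.8 and 72.1 at 4 h and 59.7, 97.2 and 64.5 at 16 h, which overlap. On the normalized scale they no longer overlapped, with a log2 mean of 6.88 ± 0.05 (SD, n = 3) at 4 h and 7.24 ± 0.21 at 16 h and a difference of -0.36 (SE 0.10, 95% interval -0.60 to -0.13; limma adjusted p = 0.668). Replicate 2 at 16 h was the highest array in both scales. The difference was -0.16 among the arrays with high 18S signal and -0.43 among the others, and with no background correction it was -0.68. Kcnk12, another background channel subunit, read 23.0, 16.9 and 29.1 against 24.8, 20.3 and 30.5. The log2 difference of Kcnk12 was -0.20 (SE 0.090, limma adjusted p = 0.919), which was -0.71 with no background correction and -0.12 without 16 h replicate 3. Kcnk1, a weakly conducting background channel, lay on the other side. It read 312.8, 246.8 and 327.3 at 4 h and 166.0, 202.6 and 161.2 at 16 h, without overlap, with a log2 difference of 0.14 (SE 0.077, limma adjusted p = 0.924) and 0.16 (SE 0.084) on a second probe. Without 16 h replicate 1 the difference was 0.075, and it was 0.27 among the arrays with high 18S signal and 0.07 among the others. Kcnk10 had a difference of 0.02 (SE 0.10).

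**Figure D4:**
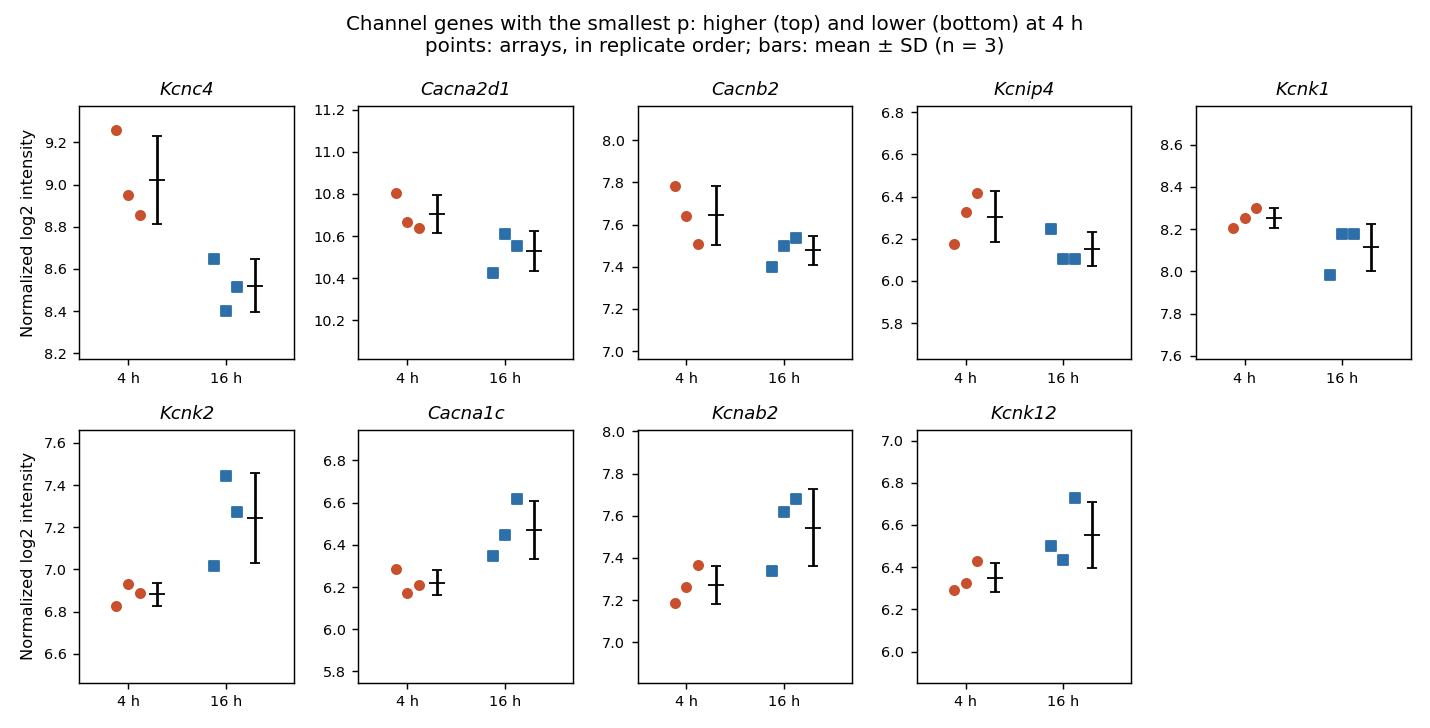
Normalized log2 intensity of the reported channel genes with the smallest p in each direction, on each array at 4 h and 16 h (points), with the mean ± SD of each time (n = 3). Kcnc4 (9.02 against 8.52) and Kcnk2 (6.88 against 7.24) show no overlap of the times, whereas Kcnab2 does overlap.

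Among the auxiliary potassium channel subunits, Kcnab2 read 116.2, 89.4 and 132.3 against 87.9, 117.8 and 100.5, and its normalized values overlapped, with a difference of -0.27 (SE 0.100, limma adjusted p = 0.833). Its value was -0.06 among the arrays with high 18S signal and -0.39 among the others, and -0.43 with no background correction. Kcnip4, which binds A-type pores, was near the noise limit and detected on 3 arrays, with 13.6, 16.8 and 28.1 against 12.1, 5.6 and 5.3 and a difference of 0.16 (SE 0.083, limma adjusted p = 0.924) that turned to -0.068 relative to the shared shift under median scaling and was 0.96 with no background correction and 0.097 without 4 h replicate 3. Of the voltage-gated pores on all arrays, Kcna6, Kcnd2, Kcnh2, Kcnh6 and Kcnq3 had differences between -0.16 (Kcnh2, SE 0.12) and 0.05 (Kcnq3, SE 0.065).

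Among calcium channel subunits, Cacna2d1, which brings pores to the membrane and is a target of gabapentin, read 2228.3, 1660.2 and 1900.9 on the 4 h arrays against 1133.2, 1367.8 and 1077.9 on those at 16 h. The times did not overlap on either scale, and the log2 means of 10.70 ± 0.09 and 10.53 ± 0.10 (SD, n = 3) gave a difference of 0.18 (SE 0.079, 95% interval -0.003 to 0.36, limma adjusted p = 0.919). The difference was 0.30 among the arrays with high 18S signal and 0.09 among the others. The other Cacna2d1 probes gave 0.54 (SE 0.32) and 0.16 (SE 0.12), also higher at 4 h, but the times overlapped on both. On the probe at 0.54, 16 h replicate 3 stood apart, at 33.2 against 166.5 and 198.8 on the other 16 h arrays. Cacnb2, a beta subunit, read 216.3, 136.9 and 154.3 against 94.0, 103.5 and 85.7, with a difference of 0.17 (SE 0.086, limma adjusted p = 0.921) that was 0.094 without 4 h replicate 1. Dimmer probes of Cacnb2 gave 0.03 (SE 0.22) and 0.075 (SE 0.099), detected on all arrays, and 0.205 (SE 0.15), detected on 5. Cacnb3 had the opposite sign at -0.17 (SE 0.11) and Cacnb4 was at -0.02 (SE 0.080). Of the pores, Cacna1g had a difference of 0.11 (SE 0.078) that was -0.05 on a second probe. Cacna1c was detected on 5 arrays and read 22.2, 9.1 and 13.5 at 4 h and 16.8, 21.1 and 24.8 at 16 h, with a difference of -0.25 (SE 0.084, 95% interval -0.44 to -0.06; limma adjusted p = 0.778). Its intensities overlap and are close to the noise limit, while the normalized values do not overlap. The value was -0.10 among the arrays with high 18S signal and -0.36 among the others, and -1.09 with no background correction. A second Cacna1c probe, detected on 3 arrays, gave -0.11 (SE 0.12), and on it the times overlapped. Cacna1a read 23.6, 18.7 and 9.4 against 12.5, 15.8 and 10.1, with a difference of -0.01 (SE 0.077, 95% interval -0.19 to 0.16; limma adjusted p = 0.997).

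Abcc8 read 190.7, 162.7 and 153.2 at 4 h and 130.8, 174.7 and 104.4 at 16 h. Its times overlapped, and the log2 means of 7.65 ± 0.15 and 7.82 ± 0.17 (SD, n = 3) gave a difference of -0.17 (SE 0.11, 95% interval -0.41 to 0.08; limma adjusted p = 0.946). The difference was -0.069 without 16 h replicate 2 and -0.089 without 4 h replicate 3. Kcnj11 read 4.7, 8.3 and -1.5 at 4 h, not above the noise limit on any array, and 11.2, 23.2 and 4.6 at 16 h, above it on 2. The times overlapped, the highest value was that of 16 h replicate 2, and no fold is given (limma adjusted p = 0.920). Cacna1d, at 6.2, 9.8 and 14.4 against 7.8, 0.3 and 6.7, was above the limit on 1 array of the 4 h group, and no fold is given. Kcnj8 had a difference of -0.03 (SE 0.072).

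The sodium channel pores differed widely between arrays of a time. Scn1a read 295.5, 87.9 and 106.7 at 4 h and 72.7, 80.9 and 76.9 at 16 h, and replicate 1 at 4 h stood apart. Its difference of 0.22 had the widest error of the 27 genes, taking 1 probe for each (SE 0.22, 95% interval -0.28 to 0.72, limma adjusted p = 0.962). The normalized values were 8.14, 7.25 and 7.18 against 7.18, 7.28 and 7.44. The higher mean at 4 h rested on replicate 1, since the other 4 h values lay below the 16 h mean of 7.30. Scn3a read 272.9, 153.2 and 156.9 against 130.1, 195.9 and 163.1, again with replicate 1 at 4 h the highest in intensity, and its difference was -0.24 (SE 0.16, limma adjusted p = 0.946). Its normalized values were 8.05, 7.745 and 7.522 against 7.717, 8.141 and 8.193, so replicate 1 of each time narrowed this difference. Scn3b had a difference of -0.10 (SE 0.075), with -0.02 and 0.01 on its other bright probes. Replicate 1 at 4 h was also the array with the most extremes among the 27 genes on the normalized scale, highest in 7 and lowest in 11.

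Genes that act with these channels were read from 5 lists, and limma called none of them. Of 24 channel partners and regulators, 15 were detected on all arrays, 4 were higher at 4 h at an unadjusted p under 0.05 and 0 lower, and the median log2 change of those on 3 or more arrays was 0.10. These 4 were Rem2, a small GTPase that inhibits voltage-gated calcium channels (0.22, SE 0.077), Fgf12 (0.34, SE 0.11) and Fgf14 (0.29, SE 0.11), which bind sodium channel pores, and the kinase Camk2b (0.29, SE 0.11). Rem2 had a mean intensity of 776.4 ± 136.2 at 4 h and 452.7 ± 69.9 at 16 h (SD, n = 3), without overlap (limma adjusted p = 0.812). Of 8 genes of the sodium pump, which restores the gradients, 5 were on all arrays with a median of 0.28, and 2, Fxyd6 (0.34, SE 0.078) and Atp1b1 (0.28, SE 0.11), were higher, and 1 gene lower, at that unadjusted p. Of 20 genes of calcium stores and pumps, 14 were on all arrays, those on 3 or more had a median of -0.03, and 2 were lower at that p. Of 29 measured cation and chloride channels outside the set, 11 were on all arrays and 11 on none, those on 3 or more had a median of -0.03, and 1 was higher and 3 lower at that p, among the latter the purinergic receptor P2rx4 at -0.25 (SE 0.068) and the lysosomal chloride transporter Clcn7 at -0.31 (SE 0.098). Of 8 genes of nutrient entry, 6 were on all arrays, the sodium-glucose transporter Slc5a1 among them, the transporters Slc2a2 and Slc15a1 were on none, and none passed an unadjusted p of 0.05. These counts at an unadjusted p also hold genes that were detected on fewer than 3 arrays, for which no change is given. Their background is 2.81% higher and 2.6% lower over all probes, most of them detected on no array, and 1628 of the 14941 probes detected on all arrays in either direction, so that counts such as 4 of 24 are no result about a list. The genes named from the lists were chosen after their values were seen.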

How the data were processed

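RNA of 6 samples of mGLUTag cells (3 at 4 h, 3 at 16 h, grouped by the time in the labels) was measured on 1 Illumina mouse array each. The authors deposited 1 background-subtracted linear intensity per probe and array, not normalized between arrays and without detection p-values or control probes; between 31.24% and 34% of an array's values lay below 0. Scanner settings, slides and the genome build are not given in the sources used here. The authors' own comparison is not used.

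Normalization and testing used limma 3.58.1 under R 4.3.3. Background was corrected by normexp (offset 50), values were quantile normalized and set to log2, and lmFit and eBayes were run on all probes with time as the one term, two-sided, with Benjamini-Hochberg adjustment over 45281 probes (threshold 0.05). The offset shrinks differences of dim probes. On simulated data, 194 of 200 probes changed by a log2 value of 1 were recovered, with 7 false calls. The simulated noise was independent between probes and arrays and was added after normalization. Smaller changes were not simulated, so recovery of changes of the size reported for the channel genes was not tested. Changes are given for genes detected on at least 3 arrays, and Kcnj11 and Cacna1d, which were to be named with a change, are given none. Channel names were matched to RefSeq symbols (257 probes by symbol, 3 by a synonym). A further 13 probes, whose older names a synonym links to 10 channel genes, are no members.

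The members and lists were chosen with earlier results of these data known. Named were the 4 genes that check the set (Kcnj11, Abcc8, Cacna1a, Cacna1d) and, among those detected on 3 or more arrays, the 5 with the smallest p in each direction; other members are named for their role. Some genes are not reported here, though they stand in the counts. Alternatives were other background corrections, normalizations, filters, variance settings, a replicate block, each array left out and, added after seeing the data, the 18S signal as a block. Replicate numbers were not used to pair the samples in the reported fit. Deviations of same-numbered arrays from the mean of their time correlated at 0.25, 0.17 and -0.49. Arrays of different number were not compared, so these values do not decide whether the samples were paired. All columns of values were mapped to a sample. Arrays hold no counts, so their number limits the precision.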

Additional observations from a re-analysis of the deposited data

How the results depend on the processing

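The number of probes called higher and lower at 4 h, 2 and 2 as reported, was 19 and 10 with no background correction, 832 and 0 with median scaling, 2308 and 0 with no between-array normalization and 1 and 0 with trend and robust variance. It was 0 and 0 with an offset of 16, with the filter at the noise limit, with the replicate block, with the 18S block (chosen after seeing the data) and without each array in turn, and 0 and 2 with cyclic loess. At an unadjusted p under 0.05 limma had 2451 probes as reported, 2237 with no background correction, 8638 with median scaling, 12062 with no between-array normalization, 2486 with offset 16, 1029 with the filter, 2480 with the replicate block, 2655 with the 18S block and 1844 to 3209 without each array. Channel genes called, 0 as reported, were 1 with no background correction (Kcne2, detected on no array), 2 with median scaling (Cacna2d1 and Kcnc4), 3 with no between-array normalization (those and Kcnk1) and 0 elsewhere, the replicate block and each array left out included. Median scaling and no normalization leave a shared shift of 0.27 and 0.36 log2 units in the median of detected probes. Relative to it, Kcnc4 was at 0.64 in both (adjusted p 0.0401 and 0.0332 in the fit with the shift), Cacna2d1 at 0.32 (0.0494 and 0.0406), Kcnk1 at 0.24 (0.0393 without normalization) and Kcnip4 reversed to -0.068 in both. Kcnc4 ranged from 0.33 to 0.64 over all alternatives, with adjusted p from 0.0332 to 0.999. With no background correction Kcnk2 was at -0.68, Kcnk12 at -0.71, Cacna1c at -1.09, Kcnab2 at -0.43 and Kcnip4 at 0.96, so the order of the members by size differed from that reported. Over the alternatives Abcc8 ranged from -0.24 to -0.07, Kcnk1 from 0.075 to 0.24, Cacnb2 from 0.094 to 0.24 and Kcnk12 from -0.71 to -0.12. Cacna1a, near 0 as reported, reversed to 0.051 without 4 h replicate 3, 0.018 without 16 h replicate 2 and 0.022 with the 18S block, with a range of -0.058 to 0.051 over the arrays left out; it was -0.21 with median scaling and with no normalization and -0.12 with no background correction. The median of the channel genes detected on 3 or more arrays, relative to all probes so detected, was -0.021 with the settings of the reported fit. This median was -0.131 with median scaling and -0.131 with no normalization, and -0.027 to 0.017 without each array, above 0 without 16 h replicate 2. Of 192 values of 12 named genes under 16 alternatives, 182 kept their direction and side of the threshold. The lowest adjusted p of these genes in the reported fit was 0.405 (Kcnc4), and the alternatives share most of their data. This count therefore had little room to differ and is no measure of support. The cause of these differences was not tested. Genes near the noise limit are compressed by the offset, and their values set no order.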
